A study of Caenorhabditis elegans with 21 samples.

Results

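The transcriptomes of continuously fed Caenorhabditis elegans were compared between day 1 adults and L1 animals, the first larval stage, using 6 of the 21 libraries of the series. Both groups were control animals of the wild-type strain N2 that had not been starved and whose ancestors had been fed. The 3 adult libraries came from about 100 whole adult hermaphrodites each, at day 1 of adulthood on food, picked by hand and carrying eggs. The 3 L1 libraries came from about 10000 whole L1 animals each, hatched from eggs freed from their mothers by bleach and collected on food. The libraries were chosen by their labels alone, and genes were kept where the mean was at least 1 CPM, a count scaled to a library sum of 1000000, in either stage, which left 13104 of the 16859 genes shared by both deposited tables. The series was made to follow the effects of recurrent L1 starvation across generations, with 7 groups of 3 libraries, and it compared no stages itself. A further 6 libraries entered as a repeat of the same comparison in lines with a history of starvation. These were fertile day 1 adults of the last of 5 generations starved as L1 (F4 L1starved) and fed L1 animals of the third fed generation descended from such a line (F4 L1starved + 3 fed). The 3 libraries of sterile F4 L1starved adults, animals without eggs, served as adults that make no embryos.

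Adults and L1 animals were collected in different ways, and the study's authors normalized and deposited them in separate tables. Stage, collection and the number of animals per library change together and cannot be told apart, and no test was made between the stages. Every difference below is a description, given as the mean of log2(CPM + 0.1) of adults minus that of L1 animals, with its standard error from 3 and 3 libraries. A gene was counted as stage-biased when this difference was at least 2 on the log2 scale, which is 4-fold, and the 3 values of one stage did not overlap the 3 of the other. CPM is not divided by gene length, so levels are compared between stages and not between genes. Where a gene is near 0 CPM in a stage, the added 0.1 makes the log2 difference smaller than the ratio of the means.

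An L1 animal hatches with its larval body plan, including most of its neurons, its pharynx, body wall muscle and intestine, and with a gonad primordium of very few cells. Over 4 larval stages, each ended by a molt in which a new collagen cuticle is made, the germline proliferates and the vulva, uterus and gonad sheath are built. An adult hermaphrodite makes yolk in its intestine, feeds it to growing oocytes, fertilises them with stored sperm and holds the young embryos for a time, so RNA of embryos is part of every library of these adults. In whole animals, fewer cells of a type and less RNA per cell cannot be told apart.

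Adult libraries held 18356458 to 21455684 reads and L1 libraries 39422789 to 45356459, so that 3 reads corresponded to 0.141 to 0.165 CPM in adults and 0.0675 to 0.0772 CPM in L1 animals. Ribosomal RNA, chiefly from rrn-3.1, took 8.48% to 9.87% of the reads of shared genes in adults and 0.904% to 1.49% in L1 animals. The library kit uses primers directed against ribosomal RNA, and counts rescaled without the largest genes are given below. Log2 values correlated across genes at 0.987 to 0.992 within a stage and 0.582 to 0.608 between the stages, where genes are not independent replicates. Replicate 1 of the L1 animals stood apart from the other 2. The heat shock gene hsp-16.2 was at 103.3 CPM in it against 6.48 and 6.75 CPM in L1 replicates 2 and 3, and at 0.659 to 0.881 CPM in adults. Without this replicate the stage difference of hsp-16.2 went from -4.25 ± 1.32 to -2.94 ± 0.11, and that of hsp-70, another stress-induced chaperone, from 0.00 ± 1.44 to 1.37 ± 0.47. Without it the counts of the gene lists described below moved by at most 9 genes, from 74 to 83 nuclear hormone receptors on the L1 side, and by over 1.5 times only for early zygotic genes in L1 animals (1 to 2) and fatty acid synthesis genes in adults (0 to 1). Labels were checked against stage markers. The adult collagen col-19 was at 721, 953 and 808 CPM in adults and at 0.103, 0.238 and 0.0450 CPM in L1 animals, and lin-14, a timing factor of the L1 stage, at 13.4, 10.5 and 12.9 CPM against 149, 120.4 and 133 CPM. Other adult-stage collagens were low, with col-7 at 0.236 to 0.565 CPM and bli-1 at 0.283 to 0.661 CPM in adults, and the sperm marker spe-9 was under 0.3 CPM in all 6 libraries.

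Of the 13104 genes, 2279 were at least 4-fold higher in adults with no overlap (17.4%) and 3507 were at least 4-fold higher in L1 animals (26.8%), while 7318 were neither. At 16-fold, 821 genes were higher in adults and 661 in L1 animals. The 3 values of the stages did not overlap, at any size of difference, for 5254 genes with adults above and 6531 with L1 animals above. The median difference over all genes was -0.39 and the median standard error 0.17, and 39 genes had no read in any L1 library against 11 with none in any adult library. The split depends on the scale. Rescaling by median-of-ratios size factors added 0.38 to the difference of a median gene, and 2900 genes were then higher in adults and 2809 in L1 animals, which moved the share of counted genes higher in adults from 39.4% to 50.8%. Leaving genes with at least 1% of a library out of the sum gave 2736 and 3117 genes and a share of 46.7%. Differences under about 0.45 on the log2 scale are therefore given without a direction.

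**Figure D1:**
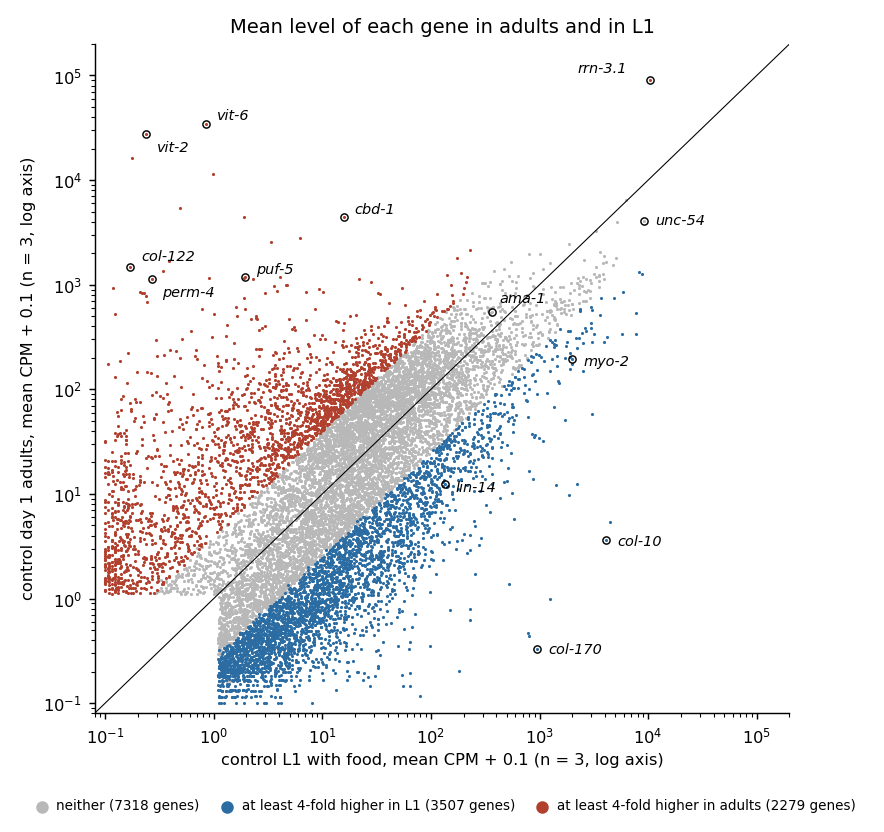
Mean CPM + 0.1 of each of 13104 genes in 3 control L1 libraries (x, log axis) and 3 control adult libraries (y, log axis), with red points for the 2279 genes at least 4-fold higher in adults, blue points for the 3507 at least 4-fold higher in L1 animals and grey for the rest. Yolk genes lie at the top left, more than 4 log10 units above the diagonal for vit-2 and vit-6, and larval collagens such as col-10 and col-170 lie at the lower right.

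The starvation lines, whose 6 libraries are all different, gave 1956 genes at least 4-fold higher in fertile F4 L1starved adults (14.9%) and 3040 higher in F4 L1starved + 3 fed L1 animals (23.2%). Of these, 1860 and 2756 were counted on the same side in controls, which is 81.6% and 78.6% of the control genes and 95.1% and 90.7% of those of the starvation lines. No gene was counted on opposite sides. Across the 13104 genes the differences of both comparisons correlated at 0.967, as a description over genes that share the same annotation and library types.

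Of 50 gene lists, 49 had members above 1 CPM and differed in median by tissue and process. Lists of yolk, eggshell, oocyte and meiosis genes lay at the adult end and lists of neuropeptides, larval collagens and insulin-like peptides at the L1 end. The background for each list is the share of all genes counted, 17.4% on the adult side and 26.8% on the L1 side.

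**Figure D2:**
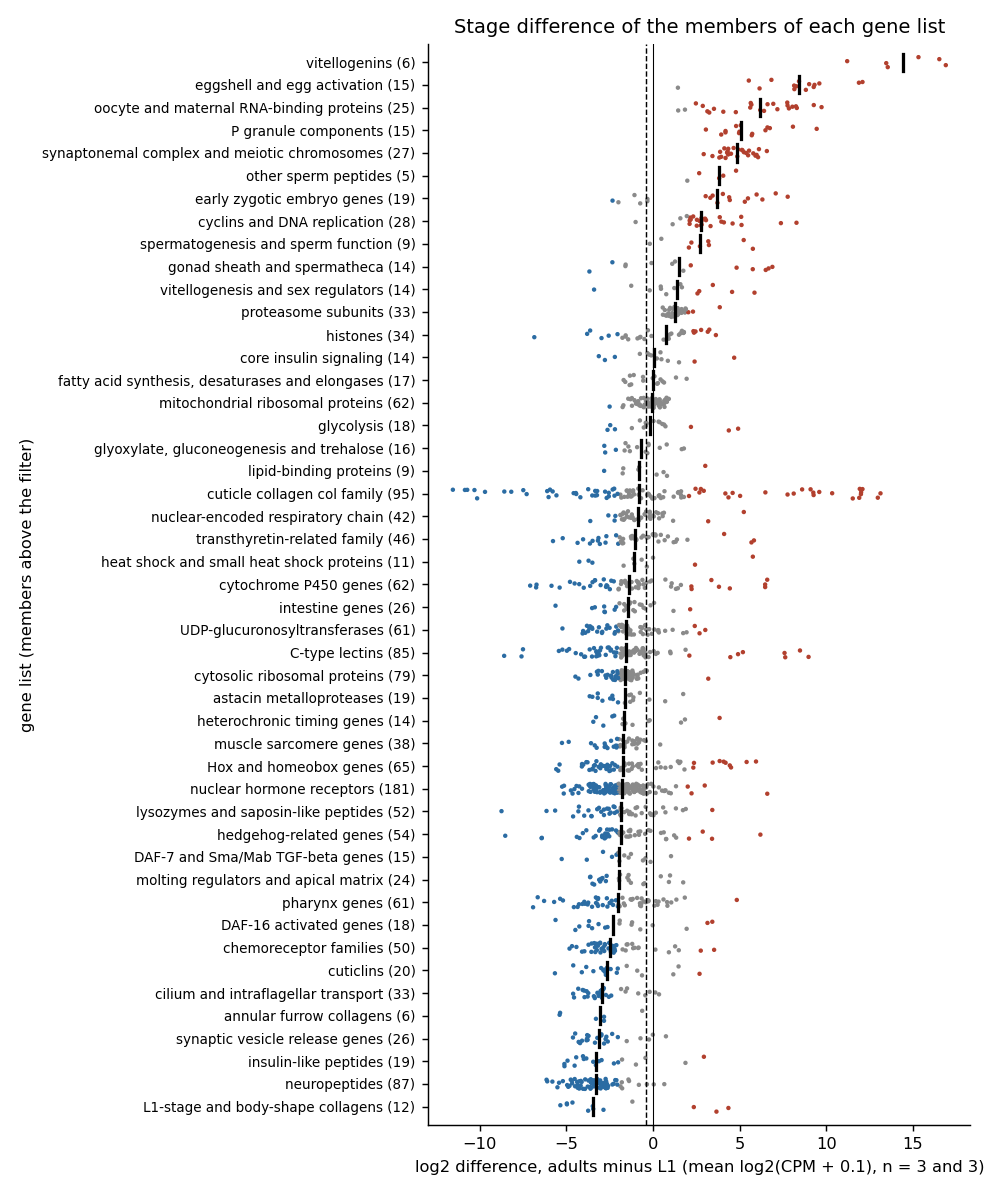
Log2 difference, adults minus L1 (x), of the members above 1 CPM of each gene list (y, number of members in parentheses), with red points at least 4-fold higher in adults, blue points at least 4-fold higher in L1, grey points neither, a short black bar at each list's median and a dashed line at the median of all genes, -0.39. The adult-stage cuticle collagens and the major sperm proteins, with 1 and 2 such members, are not drawn. List medians run from 14.43 for the vitellogenins to -3.46 for the L1-stage and body-shape collagens.

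Yolk protein genes differed most. The 6 vitellogenins together took 9.35% to 10.4% of the reads of shared genes in adults and 0.000388% to 0.000417% in L1 animals. The level of vit-2 was 27923, 28161 and 26177 CPM in the adult libraries and 0.257, 0.119 and 0.0450 CPM in the L1 libraries, a difference of 16.90 ± 0.38 on the log2 scale, where the L1 values rest on 10, 5 and 2 reads. For vit-6, on chromosome IV while the other 5 lie on X, the values were 34961, 35611 and 33404 CPM against 0.695, 0.810 and 0.743 CPM, a difference of 15.32 ± 0.06. The adult levels of vit-5 were 17768, 16182 and 14799.9 CPM, those of vit-1 12560.4, 11316 and 10422 CPM and those of vit-3 6258, 5349 and 4799 CPM, while all L1 values of these genes were at or below 1.23 CPM. The smallest difference was that of vit-4 with 11.204 ± 0.19, from 4435 ± 509.8 CPM (SD, n = 3) in adults and 1.796 ± 0.384 CPM in L1 animals. All 6 genes were thus close to silent in L1 animals in every library. Sequences of vit-3, vit-4 and vit-5 are close to one another, so reads could be split among them, as they could for the other near-identical copies below (col, msp, his, gpd). In sterile adults the 6 vitellogenins were higher than in fertile F4 L1starved adults in all libraries, with a median of -0.89 for fertile minus sterile.

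**Figure D3:**
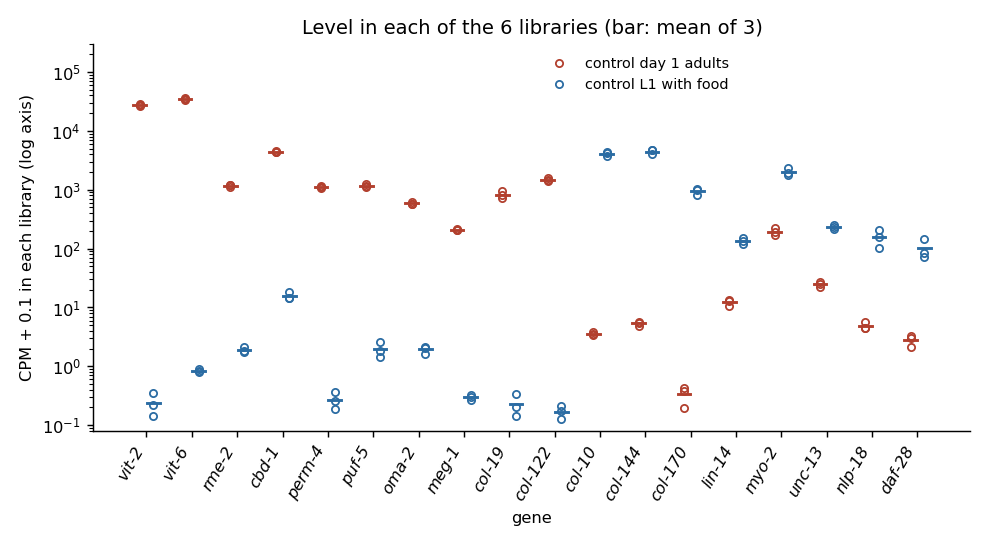
CPM + 0.1 (y, log axis) of 18 genes (x) in each of 3 control adult libraries (red circles) and 3 control L1 libraries (blue circles), with a bar at the mean of 3. The circles of the stages do not overlap for any of the 18 genes, which were picked as examples. Among all 13104 genes, 5254 did not overlap with adults above and 6531 with L1 animals above. The values of vit-2 lie between 26177 and 28161 CPM in adults and under 0.3 CPM in L1 animals.

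The yolk receptor and the proteins that build the eggshell were far higher in adults as well. Of 15 eggshell and egg activation genes, 14 were counted higher in adults and 0 in L1 animals, with a median difference of 8.42. The oocyte yolk receptor rme-2 was at 1189.8, 1113 and 1205 CPM in adults and 2.01, 1.67 and 1.71 CPM in L1 animals, a difference of 9.27 ± 0.09. The chitin-binding protein cbd-1 of the outer eggshell layer was at 4581, 4299.8 and 4377 CPM against 14.1, 14.3 and 18.499 CPM, and the eggshell chondroitin proteoglycan cpg-2 at 2649, 2527 and 2543 CPM against 2.68, 3.62 and 3.44 CPM. For perm-4, needed for the permeability barrier of the egg, the values were 1169, 1134 and 1089 CPM against 0.154, 0.262 and 0.0900 CPM, with 6, 11 and 4 reads in the L1 libraries. The adult values of these genes were close to one another and none came near an L1 value. The exception was mbk-2, a kinase of the oocyte-to-embryo transition chosen here after its values were seen, at 366 ± 14.2 CPM against 135 ± 10.1 CPM and a difference of 1.44 ± 0.07. Outside the list, ule-3, named for its expression in the uterine lumen, was at 523, 532 and 532 CPM in adults and 0, 0.0477 and 0.0225 CPM in L1 animals. The cytochrome P450 gene cyp-31A2, which acts in making the lipids of the eggshell, was at 68.7, 62.6 and 68.4 CPM against 0.617, 0.929 and 0.473 CPM, though its reads could be shared with its near copy cyp-31A3.

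Regulators of maternal messages followed the same side. Of 25 oocyte and maternal RNA-binding proteins, 23 were counted higher in adults and none in L1 animals (median 6.18). The Pumilio-family repressor puf-5 was at 1247, 1149 and 1125 CPM against 1.34, 1.74 and 2.45 CPM. The zinc finger genes oma-1 and oma-2, which act redundantly in oocyte maturation, had differences of 8.04 ± 0.37 and 8.25 ± 0.13, with 621, 574 and 579 CPM for oma-2 in adults and 1.54, 2.05 and 1.98 CPM in L1 animals. The embryonic polarity factor mex-5 was at 910.2, 836 and 852 CPM against 3.16, 3.93 and 3.98 CPM and spn-4, a translational regulator of the early embryo, at 896, 853 and 821 CPM against 5.92, 6.79 and 8.08 CPM. Members that also work outside the germline differed less. The RNA helicase cgh-1 and its partner car-1 had L1 levels of 228 ± 39.9 CPM and 213 ± 32.6 CPM and differences of 3.25 ± 0.16 and 2.47 ± 0.14. The members not counted were gld-2, a poly(A) polymerase named after its values were seen, at 1.45 ± 0.16, and lin-41, at 1.84 ± 0.04, both with no overlap between the stages.

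Germ granule and meiosis genes were higher in adults without exception among those measured. All 15 P granule components were counted (median 5.06). The Argonaute wago-1 was at 932, 868 and 943 CPM in adults and 9.44, 9.72 and 8.78 CPM in L1 animals, and the Argonaute csr-1 at 507, 488 and 497 CPM against 18.99, 17.97 and 16.6 CPM. The helicase glh-1, a Vasa relative, was at 369, 359 and 382 CPM against 26.4, 23.8 and 22.2 CPM, and the scaffold pgl-1 at 452, 431 and 441 CPM against 14.9, 13.2 and 13.4 CPM, so that both remained readily measured in L1 animals, whose germline begins as a pair of precursor cells. All 27 genes of the synaptonemal complex and meiotic chromosomes were counted as well (median 4.86). The axis protein him-3 was at 100.4, 90.1 and 90.1 CPM against 0.798, 1.53 and 1.78 CPM. The central region proteins syp-1 and syp-4 differed by 4.27 ± 0.20 and 6.11 ± 0.07, the meiotic cohesin rec-8 by 4.50 ± 0.14 and the crossover factor msh-5 by 4.33 ± 0.05. None of these 4 overlapped between the stages, and their adult means were between 70.2 and 146 CPM.

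Cell division genes were higher in adults too. Of 28 cyclin and DNA replication genes, 24 were counted in adults and 0 in L1 animals (median 2.80). The B-type cyclin cyb-3 was at 976, 908 and 898 CPM against 48.8, 58.2 and 56.6 CPM. The replicative helicase subunits mcm-6 and mcm-7 had differences of 2.99 ± 0.04 and 3.01 ± 0.07, and the ribonucleotide reductase rnr-1 one of 2.15 ± 0.06 with 595, 531 and 571 CPM in adults and 121.7, 129.05 and 132 CPM in L1 animals. L1 levels of these genes were well above the limit of 3 reads.

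Adults without eggs gave a further view of these genes. Sterile F4 L1starved adults were set beside fertile F4 L1starved adults within one table, a comparison added after the stage values were seen, and it is a description by the same 4-fold rule. Of the 13104 genes, 1040 were higher in fertile adults (7.94%) and 166 in sterile adults (1.27%). Ribosomal RNA took 17.88% to 23.39% of the reads of shared genes in sterile and 11.87% to 16.999% in fertile F4 L1starved adults. The vitellogenins took 19.79% to 26.16% in sterile and 11.16% to 14.297% in fertile ones. Larger shares of these genes lower the CPM of all others. Other scalings were not applied here, so how far this moves the counts and shares of this comparison was not tested. Among the 2279 genes counted higher in control adults than in L1 animals, 695 were lower in sterile than in fertile adults (30.5%), and among the 821 at least 16-fold higher, 431 (52.5%). Of the 3507 genes counted higher in L1 animals, 100 were lower in sterile adults (2.85%). By list, 12 of 15 eggshell genes, 18 of 25 oocyte genes, 18 of 28 cell division genes and 4 of 15 P granule genes were 4-fold lower in sterile adults. In the eggshell list 1 gene was higher in sterile adults with no overlap. The mean of perm-4 was 1907 CPM in sterile and 1461 CPM in fertile F4 L1starved adults. Without a size limit, 45.8% of the 13104 genes were lower in sterile adults with no overlap and 22.4% higher, and the median over all genes was 0.35 for fertile minus sterile. None of the 27 meiosis genes was 4-fold lower, while all 27 were lower with no overlap, with a median of 1.51 for fertile minus sterile. The medians of the eggshell and oocyte lists were larger, at 2.50 and 2.34. The sterile animals also had a history of starvation, so sterility and that history cannot be told apart in a comparison with controls.

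Most sperm genes on the lists were below 1 CPM in both stages. Of 9 major sperm protein genes in both tables, 2 reached 1 CPM in a stage and 1 was counted. Among other sperm peptides 5 of 11 passed and 4 were counted, and among genes of spermatogenesis and sperm function 9 of 32 passed and 7 were counted, all higher in adults. Members that passed only through the higher stage had to differ, so these counts describe them and no more. The sperm peptide gene ssq-4 was at 0.440, 3.34 and 3.68 CPM in adults and 0.0257, 0 and 0.0225 CPM in L1 animals, and msp-31 at 0.330, 1.93 and 1.94 CPM against 0.206, 0.191 and 0.293 CPM. Adult replicate 1 was low for these genes. The spermatogenesis genes with the highest levels were cpb-1, an RNA-binding protein of the CPEB family, at 84.4, 85.0 and 75.5 CPM against 1.26, 1.57 and 1.40 CPM, and spe-39, which also acts in vesicle traffic of other cells, at 107, 96.2 and 93.5 CPM against 21.9, 21.2 and 20.5 CPM. In these self-fertile animals sperm are made before the adult stage, and 4 of 5 sperm peptide genes were 4-fold higher in sterile than in fertile F4 L1starved adults.

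Genes of the early embryo were found in the adult libraries. Of 19 early zygotic genes above 1 CPM, 13 were counted higher in adults and 1 in L1 animals (median 3.72). The early embryonic transcript pes-10 was at 12.9, 10.7 and 11.9 CPM in adults and 0.0772, 0 and 0.0900 CPM in L1 animals, and vet-2 at 91.1, 80.9 and 96.6 CPM against 1.42, 0.953 and 1.69 CPM. The caudal homolog pal-1, a maternal message, was at 103, 94.6 and 99.5 CPM against 3.99, 4.53 and 5.02 CPM. Endoderm GATA factor end-1 was at 1.05, 0.895 and 1.89 CPM in adults and had no read in L1 animals. Members that passed only through the higher stage, such as end-1, had to differ. Of the other embryo markers, end-3 was at 1.05, 0.659 and 0.566 CPM against 0.206, 0.334 and 0.158 CPM. The marker med-2 overlapped, at 0.165, 0.0942 and 0.708 CPM in adults against 0.515, 0.953 and 0.743 CPM in L1 animals. Factors that go on in larval tissue did not separate in this way. For skn-1 the values were 232, 231 and 219.8 CPM against 244, 296 and 320.0 CPM, and for lin-26, an epidermal factor, 110.2, 110.4 and 103 CPM against 91.1, 156 and 174 CPM, and the sign of both differences flips under median-of-ratios scaling. In sterile adults, which carry no eggs, 12 of the 19 genes were 4-fold lower than in fertile ones.

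The somatic gonad gave a mixed list. Of 14 genes on the list of gonad sheath and spermatheca, which also holds inx-22 of the germline, 6 were counted in adults and 2 in L1 animals. Gap junction genes joined the adult side, as seen after the values were known: inx-8 of the sheath was at 63.9, 61.6 and 63.8 CPM against 0.566, 0.691 and 0.540 CPM, and inx-14 and inx-22 of the germline differed by 6.67 ± 0.19 and 6.89 ± 0.10. Filamin fln-1 was at 1057, 1075 and 1091 CPM against 383, 504 and 457 CPM. Non-muscle myosin nmy-1 was at 292, 323 and 324 CPM against 304, 363 and 332 CPM, with overlap. On the L1 side lay the POU homeobox gene ceh-18 and the phospholipase plc-1, named after their values were seen, at -3.67 ± 0.16 and -2.35 ± 0.06, and both are also expressed outside the gonad.

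Cuticle collagens divided into adult and larval sets. Of 132 col genes shared by the tables, 95 passed, and 26 were counted in adults and 33 in L1 animals. Their summed share of reads was similar, 1.59% to 1.73% in adults and 2.00% to 2.27% in L1 animals, but it came from different genes. In adults col-122 was at 1471, 1562 and 1427 CPM, col-181 at 1738, 1729 and 1581 CPM and col-20 at 851, 994 and 928 CPM. L1 animals had 0.0257, 0.0715 and 0.113 CPM of col-122, 0.360, 0.286 and 0.225 CPM of col-181 and 0.0515, 0 and 0 CPM of col-20, values of few reads. In L1 animals col-144 was at 4657, 3979 and 4731 CPM, col-10 at 3772, 4317 and 4225 CPM and col-166 at 2416, 2049.8 and 2212 CPM. Adults had 5.67, 5.32 and 4.81 CPM of col-144, 3.74, 3.296 and 3.49 CPM of col-10 and 13.2, 13.9 and 10.1 CPM of col-166. The consecutively numbered genes col-166, col-167, col-168, col-169 and col-170 all lie on chromosome X and all were counted in L1 animals, with col-170 at 0.275, 0.0942 and 0.330 CPM in adults and 1034, 820.2 and 998 CPM in L1 animals. L1 replicate 1 was the highest for col-168 (1074, 625 and 725 CPM) and col-169 (1143, 589 and 640.4 CPM), and without it the difference of col-169 was -10.42 ± 0.35 in place of -10.72 ± 0.45. Some col genes were shared by the stages. The gene col-160 was at 566, 629.9 and 560.3 CPM against 1495, 1535 and 2049 CPM, and 36 of the 95 genes were counted on neither side.

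**Figure D4:**
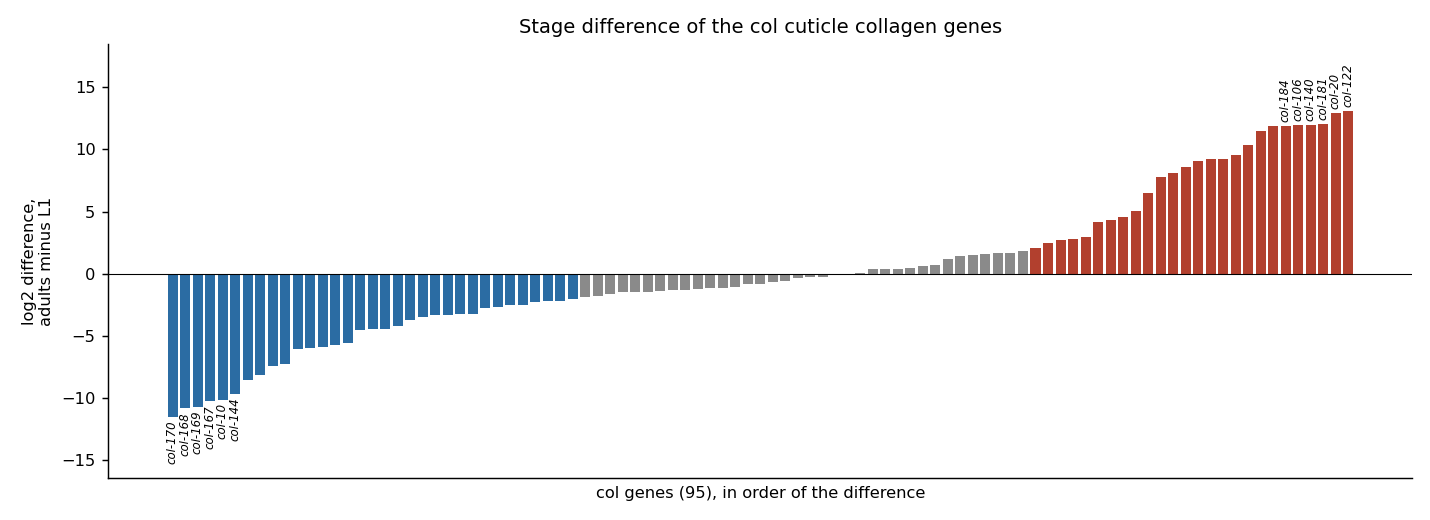
Log2 difference, adults minus L1 (y), of the 95 col genes above 1 CPM in either stage, in order (x), with red bars at least 4-fold higher in adults (26 genes), blue bars at least 4-fold higher in L1 (33 genes) and grey bars neither. The bars run from -11.55 for col-170 to 13.13 for col-122.

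Collagens listed for the L1 stage, body shape or annular furrows were mostly higher in L1 animals. Of 12 L1-stage and body-shape collagens, 3 were counted in adults and 8 in L1 animals (median -3.46). The L1 stage was part of how this list was named, so its counts describe the members and no more. The collagen dpy-13 was at 2.42, 1.18 and 3.92 CPM against 25.16, 43.9 and 15.2 CPM and rol-6 at 0.275, 0 and 0.0472 CPM against 7.31, 11.4 and 4.28 CPM. In the opposite direction dpy-17 was at 20.6, 15.7 and 21.7 CPM in adults and 4.55, 4.17 and 2.59 CPM in L1 animals. For sqt-3 the values were 11.7, 11.3 and 12.602 CPM against 30.9, 38.8 and 16.7 CPM, higher in L1 animals in all libraries, while in the starvation lines it was higher in adults. Of 6 annular furrow collagens, which shape the rings of the cuticle, 5 were counted in L1 animals and 0 in adults, with dpy-7 at 2.59, 1.32 and 1.79 CPM against 16.3, 17.5 and 8.87 CPM and dpy-10 overlapping. The median of these 6 was -3.06 in controls and -0.9996 in the starvation lines. Replicate 3 was the lowest L1 library for dpy-7, dpy-13, rol-6 and sqt-3. Cuticlins gave 14 of 20 genes in L1 animals and 1 in adults, with cut-2 at 1.54, 0.942 and 0.850 CPM against 69.5, 63.9 and 47.1 CPM. Of 5 adult-stage cuticle collagens, col-19 alone reached 1 CPM.

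Genes of molting and of larval timing were mostly higher in L1 animals. The study collected its fed L1 animals at a single time after egg preparation. Here and for the collagens above, L1 levels at other times of the stage are not covered. Of 24 molting regulators and apical matrix genes, 11 were counted in L1 animals and 0 in adults. The protease inhibitor mlt-11 was at 27.1, 20.6 and 21.9 CPM against 300.1, 381 and 207 CPM and fibrillin fbn-1 at 33.6, 35.8 and 41.3 CPM against 151, 186 and 92.8 CPM. In the starvation lines the median of this list was -0.52 in place of -1.96, and the differences were -1.40 ± 0.27 for mlt-11 and -0.10 ± 0.21 for fbn-1 in place of -3.63 ± 0.28 and -1.90 ± 0.31. The nuclear receptor nhr-23, a driver of the molting cycle, lay on the other side at 76.4, 71.8 and 68.1 CPM against 29.1, 43.1 and 44.0 CPM, short of 4-fold. For mlt-10 the stages overlapped. Hedgehog-related genes gave 24 of 54 in L1 animals and 4 in adults. The ligand-like grd-13 was at 2.31, 3.20 and 4.01 CPM against 240.0, 270.3 and 314 CPM, and the receptor-like ptr-2 at 389.6, 363 and 389.6 CPM against 5.02, 5.98 and 4.39 CPM. Patched homolog ptc-1, which acts in the germline, was at 1039, 967 and 1029.8 CPM against 408, 476 and 422 CPM. Of 14 heterochronic genes, 5 were counted in L1 animals, lin-14 first with a difference of -3.45 ± 0.14, and 1 in adults. That gene, mab-10, is a partner of lin-29 in the larval-to-adult switch and was at 20.6, 19.8 and 17.9 CPM against 1.26, 1.36 and 1.17 CPM. The period homolog lin-42 was at 10.95, 7.91 and 9.91 CPM against 44.7, 52.7 and 39.4 CPM and the transcription factor blmp-1 at 9.85, 12.5 and 12.4 CPM against 94.4, 128 and 121 CPM. In contrast lin-41, active in larval epidermis and in oocytes, was at 633, 614 and 613 CPM against 165, 173 and 181 CPM. Levels of lin-28 were 26.9, 25.9 and 26.2 CPM against 32.8, 30.8 and 30.7 CPM and those of lin-29 4.29, 5.13 and 3.54 CPM against 4.32, 4.84 and 5.60 CPM, and the sign of both differences flips under median-of-ratios scaling.

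Most neuronal genes were higher in L1 animals. Of 87 neuropeptide genes, 78 were counted in L1 animals and 0 in adults (median -3.30). Their share of reads was 0.0552% to 0.0622% in adults and 0.344% to 0.398% in L1 animals. The neuropeptide gene nlp-18 was at 4.46, 5.46 and 4.39 CPM against 103.8, 158 and 207 CPM and nlp-36 at 24.98, 28.4 and 25.9 CPM against 182, 184 and 240.4 CPM. Synaptic vesicle release genes gave 21 of 26 in L1 animals and 0 in adults. The priming factor unc-13 was at 21.8, 25.3 and 26.95 CPM against 212, 229 and 247 CPM, and synaptobrevin snb-1 at 72.2, 71.6 and 67.9 CPM against 137, 215 and 281 CPM, short of 4-fold. Cilium and intraflagellar transport genes, at work in sensory neurons, gave 25 of 33 in L1 animals and 0 in adults, with the dynein che-3 at 5.39, 7.63 and 8.59 CPM against 36.7, 45.8 and 43.5 CPM. Chemoreceptor genes passed in 50 of 196 cases, with 35 counted in L1 animals and 2 in adults. The receptor gene srr-4 was at 4.18, 6.03 and 5.52 CPM against 48.6, 37.5 and 38.9 CPM, and sri-40 at 15.4, 18.04 and 16.43 CPM in adults against 2.55, 1.00 and 0.945 CPM in L1 animals. All 4 lists stood above the 26.8% of all genes counted on the L1 side. Low members that passed only through L1 animals had to differ. Most chemoreceptor genes did not pass, so their share describes those that passed and no more.

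Muscle and gut lists had smaller medians. No muscle sarcomere gene of 38 was counted in adults and 15 were counted in L1 animals (median -1.71), and the list took 1.51% to 1.69% of adult reads and 5.37% to 5.78% of L1 reads. Body wall myosin unc-54 was at 3707, 4234 and 4159 CPM against 10464, 8376 and 8898 CPM, a difference of -1.19 ± 0.11, and titin ttn-1 at 782, 856 and 906 CPM against 5313, 5927 and 6358 CPM. Pharyngeal myosin myo-2 differed more, at 171, 221 and 192 CPM against 2339, 1762 and 1916 CPM. The list of pharynx genes, which also holds pqn genes, gave 31 of 61 in L1 animals and 1 in adults. Its members of highest level were mixed. The genes pqn-20, pqn-59 and pqn-87 were higher in adults, at 0.83 ± 0.14, 0.81 ± 0.10 and 0.60 ± 0.09, short of 4-fold. The gene pqn-44 lay on the L1 side, at -3.29 ± 0.16. Among 26 intestine genes 8 were counted in L1 animals and 1 in adults, a share of 30.8% on the L1 side that is near the 26.8% of all genes. The aspartyl protease asp-1 was at 1106, 1401 and 1278 CPM against 9628, 8718 and 8033 CPM and the microvillar actin act-5 at 348, 428 and 383 CPM against 2718, 2467 and 2748 CPM. The intestinal GATA factor elt-2 was at 4.84, 5.60 and 6.56 CPM against 17.03, 12.7 and 19.8 CPM, and the gut esterase ges-1 at 17.78, 21.8 and 23.1 CPM against 26.3, 35.7 and 29.8 CPM, while the same tissue makes the yolk proteins of adults.

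The translation machinery took a larger share of L1 reads. Cytosolic ribosomal protein genes held 12.96% to 15.95% of L1 reads and 4.04% to 4.401% of adult reads, and 22 of 79 were counted in L1 animals (median -1.62), or 16 without L1 replicate 1. That share, 27.8%, is near the 26.8% of all genes. The gene rpl-17 was at 763, 792 and 702 CPM against 4446, 4947 and 5289 CPM and rpl-3 at 1692, 1704 and 1529 CPM against 4640.1, 3792 and 3769 CPM. Mitochondrial ribosomal proteins gave 1 of 62 counted, with a median of -0.08 whose sign flips with scaling. Respiratory chain genes of the nucleus gave 2 in adults and 4 in L1 animals of 42 (median -0.84), with atp-1 of the ATP synthase at 1775, 1793 and 1778 CPM against 4810.1, 4951 and 5297 CPM. Proteasome subunits leaned to adults, with a median of 1.25 and 3 of 33 counted there, rpn-2 at 618, 564 and 566 CPM against 164, 141 and 124 CPM. Of 34 histone genes 7 were counted in adults and 6 in L1 animals, or 20.6% and 17.6%, against 17.4% and 26.8% of all genes. The gene his-64 was at 1263, 1171 and 1264 CPM against 186, 118.7 and 118.8 CPM, whereas his-17 was at 10.2, 14.3 and 11.9 CPM against 1300.3, 1375 and 1543 CPM.

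Several enzymes and ribosomal subunits come as paired copies that differed between the stages in opposite directions. These pairs were chosen after their values were seen. The ribosomal protein rpl-11.1 was at 329.6, 324 and 318 CPM against 43.9, 30.9 and 32.8 CPM and its copy rpl-11.2 at 62.4, 71.8 and 69.3 CPM against 1645, 1095 and 1333 CPM. Of the ATP synthase B subunit, asb-1 was at 122.1, 111 and 126 CPM against 16.13, 11.8 and 11.8 CPM and asb-2 at 109, 123 and 128 CPM against 1389, 1314 and 1764 CPM. For the complex III core protein the differences were 5.24 ± 0.17 for ucr-2.3 and -2.58 ± 0.09 for ucr-2.1. Glyceraldehyde-3-phosphate dehydrogenase is made from 4 genes. The copies gpd-1 and gpd-4 differed by 4.37 ± 0.18 and 4.91 ± 0.08, whereas gpd-2 and gpd-3 differed by -2.63 ± 0.17 and -2.198 ± 0.15, with adult means of 191, 105, 102 and 182 CPM in that order. In each of these 5 pairings the adult-biased copy was lower in sterile than in fertile F4 L1starved adults with no overlap, and the L1-biased copy was higher, for example 1.21 ± 0.22 for rpl-11.1 and -0.82 ± 0.07 for rpl-11.2 (fertile minus sterile, log2). Against all genes, of which 45.8% were lower and 22.4% higher in sterile adults with no overlap, these pairings are a description of genes picked by their values. Other copies looked at were mixed. The copies asg-1 and asg-2 lay on opposite sides, at 1.16 ± 0.10, short of 4-fold, and -2.22 ± 0.09. The small heat shock genes sip-1 and hsp-16.2 did so too, at 5.76 ± 0.32 and -4.25 ± 1.32. Opposite directions were not seen for par-5 and ftt-2 or for rpl-25.2 and rpl-25.1. The differences between the stages were -0.10 ± 0.03 for par-5 and -2.202 ± 0.04 for ftt-2, and -1.196 ± 0.07 for rpl-25.2 and -4.48 ± 0.23 for rpl-25.1, and ftt-2 overlapped between fertile and sterile adults. A pair of signaling kinases also lay on opposite sides, with akt-2 at 5.72, 4.71 and 7.79 CPM against 38.4, 56.1 and 32.8 CPM. Values of akt-1 were 232, 218 and 231 CPM against 101, 153 and 128 CPM, short of 4-fold. Fertile minus sterile, the differences were 0.93 ± 0.08 for akt-1 and -1.11 ± 0.27 for akt-2. For asg-1 and asg-2 they were 0.36 ± 0.11 and -0.79 ± 0.06.

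**Figure D5:**
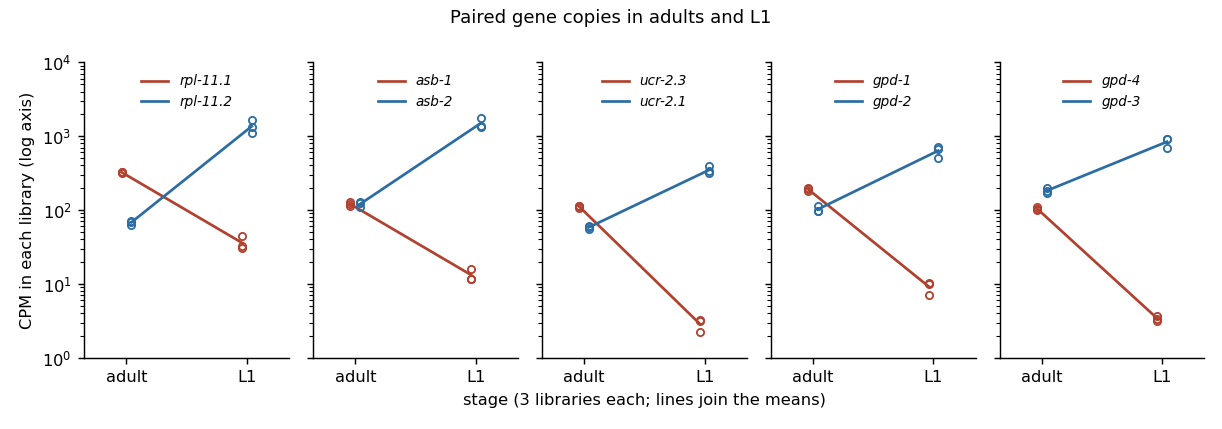
CPM (y, log axis) of 5 pairs of gene copies in each of 3 control adult and 3 control L1 libraries (x), with circles for libraries and lines joining the means of 3. In each panel the red copy is lower and the blue copy higher in L1 than in adults, as for rpl-11.1 (mean 324 to 35.8 CPM) and rpl-11.2 (mean 67.8 to 1358 CPM).

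Metabolic lists had smaller medians. Glycolysis gave 3 genes in adults and 3 in L1 animals of 18, or 16.7% on each side, against 17.4% and 26.8% of all genes. Its median was -0.17, with a sign that flips with scaling. Aldolase aldo-2 was at 965, 949.7 and 968 CPM against 1292, 1275 and 1292 CPM. Of 16 genes of the glyoxylate cycle, gluconeogenesis and trehalose, 3 were counted in L1 animals. The glyoxylate enzyme icl-1 was at 360.1, 428 and 503 CPM against 2691, 3979 and 2255 CPM. No gene of 17 in fatty acid synthesis was counted on either side (median -0.02, with a sign that flips with scaling), and fatty acid synthase fasn-1 was at 631, 655 and 646 CPM against 1618, 1447 and 1158 CPM. Lipid-binding proteins gave 1 and 1 of 9, with lbp-9 at 223, 202 and 220.2 CPM in adults against 38.2, 21.7 and 22.5 CPM.

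Signaling genes differed by list. Of 19 insulin-like peptide genes above 1 CPM, 14 were counted in L1 animals and 1 in adults (median -3.30). The ligand daf-28 was at 2.92, 2.07 and 3.21 CPM against 72.2, 84.1 and 147 CPM and ins-27 at 3.85, 4.24 and 5.24 CPM against 57.1, 77.0 and 61.98 CPM. The core of the pathway gave 2 and 3 of 14, or 14.3% and 21.4%, near the 17.4% and 26.8% of all genes. Counted members, named after their values were seen, included the phosphoinositide kinase age-1 at 164, 154 and 156 CPM against 30.1, 28.9 and 30.5 CPM, the insulin receptor substrate homolog ist-1 at 5.72, 8.05 and 8.02 CPM against 52.4, 78.7 and 62.2 CPM and ftt-2. The receptor daf-2 and the transcription factor daf-16 were not counted. The values of daf-2 were 313, 299.9 and 322 CPM against 211, 238 and 219 CPM and those of daf-16 181, 172 and 176 CPM against 133, 153 and 169.1 CPM, with a daf-16 difference too small for a direction. Genes that DAF-16 activates gave 2 in adults and 9 in L1 animals of 18, with dod-6 at 26.7, 29.5 and 26.95 CPM against 277, 410.3 and 408 CPM, and 3 and 10 without L1 replicate 1. TGF-beta genes of both branches gave 6 of 15 in L1 animals and 0 in adults. The Ski homolog daf-5 was at 38.6, 36.4 and 42.5 CPM against 431, 558 and 707 CPM. Regulators of vitellogenesis and sex gave 5 in adults and 1 in L1 animals of 14, with pqm-1 at 9.08, 14.4 and 20.9 CPM against 128.9, 161 and 159 CPM and tra-2 at 159.5, 149.6 and 156 CPM against 44.9, 51.9 and 49.7 CPM. Heat shock genes gave 2 and 3 of 11, or 18.2% and 27.3%, near the 17.4% and 26.8% of all genes. The small heat shock gene sip-1, made in oocytes and embryos, was at 1132, 1142 and 1122 CPM in adults against 13.6, 29.4 and 22.5 CPM, and the mitochondrial chaperone hsp-6 at 710.5, 712 and 752 CPM against 1456, 1551 and 1597 CPM.

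Large families of transcription factors, secreted proteins and detoxification enzymes had more members counted in L1 animals than in adults, with L1 shares from 28.3% for the transthyretin-related genes, near the 26.8% of all genes, to 47.4% for the astacin proteases. Nuclear hormone receptors gave 4 in adults and 74 in L1 animals of 181, with nhr-7 at 2.75, 3.11 and 4.30 CPM against 86.7, 136 and 153 CPM. Homeobox genes gave 10 and 30 of 65, and ceh-100 was at 257, 245 and 261 CPM against 94.0, 85.7 and 86.9 CPM. C-type lectins gave 8 and 31 of 85. The lectin clec-87 was at 1146, 1093 and 1194 CPM in adults against 1.70, 2.62 and 2.296 CPM, and clec-63 at 175, 197 and 226 CPM against 1798, 1611 and 1690.1 CPM. Lysozymes and saposin-like peptides, a list that also holds fipr genes, gave 1 and 23 of 52. The gene fipr-1 was at 4.68, 4.24 and 5.76 CPM against 181, 257 and 329 CPM. Saposin-like spp-14 was at 97.6, 93.9 and 105 CPM against 725, 488 and 436 CPM. Lysozyme gene ilys-5 was higher in adults, short of 4-fold, at 422, 519 and 494 CPM against 241, 188 and 153 CPM. Transthyretin-related genes gave 3 and 13 of 46, and astacin proteases 0 and 9 of 19, with ttr-18 at 27.4, 32.9 and 35.5 CPM against 216, 289 and 304 CPM and nas-31 at 1.43, 1.22 and 1.32 CPM against 13.9, 18.3 and 22.3 CPM. Cytochrome P450 genes gave 8 and 21 of 62 and UDP-glucuronosyltransferases 3 and 21 of 61. The P450 gene cyp-13A12 was at 0.275, 0.848 and 0.708 CPM against 70.9, 66.2 and 75.3 CPM. In each of these pairs of counts the first is the adult side.

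By chromosome, in the WBcel235 annotation, X differed from the autosomes. Of 1935 protein-coding genes on X, 9.199% were counted in adults and 38.7% in L1 animals, with a median difference of -1.55. On the autosomes the adult share ran from 14.3% on V to 23.4% on II, the L1 share from 17.82% on III to 31.4% on V, and the median from -0.91 on V to 0.44 on I. Germline genes are known to be scarce on X in this species, and the gene lists differed in chromosome as well, so their part in the X values was not tested. Exon lengths were close, with medians of 1409 bases for protein-coding genes higher in adults, 1356 for those higher in L1 animals and 1495 for the rest. Of 211 genes above 1 CPM annotated as ncRNA, 56.4% were counted in L1 animals and 5.69% in adults, and the L1 side held 24 of 47 lincRNA genes (51.1%) and 34 of 92 snoRNA genes (36.96%).

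Genes used as references in this species differed less than the 4-fold limit. The RNA polymerase II subunit ama-1 was at 577, 544 and 536 CPM against 381, 347 and 361 CPM, tubulin tba-1 at 870.4, 799 and 820.2 CPM against 629, 608 and 551 CPM and pmp-3 at 118, 114 and 114 CPM against 57.6, 78.4 and 77.9 CPM. For cdc-42 the values were 100.3, 89.9 and 85.4 CPM against 82.0, 122.4 and 118 CPM, with overlap and a sign that flips with scaling. The differences of these 4 genes were 0.61, 0.48, 0.70 and -0.21, and 0.99, 0.86, 1.09 and 0.18 under median-of-ratios scaling. The stages did not overlap for ama-1, tba-1 and pmp-3.

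Some rows entered no comparison because their identifier was used in one table only. Among 745 such rows of the adult table, 84 reached 1 CPM and 19 reached 50 CPM. The uterine genes ule-5, at 433, 452 and 446 CPM, and ule-4, at 215.1, 199 and 215.1 CPM, are among these. Of 6205 such rows of the L1 table, 230 reached 1 CPM and 23 reached 50 CPM. They include the mitochondrially encoded cytochrome oxidase gene ctc-1, at 1155, 3566 and 3078 CPM in L1 replicates 1, 2 and 3, and none of the 12 mitochondrially encoded proteins could be compared between the stages.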

How the data were processed

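Whole-animal total RNA had been sequenced as 75-base single reads, aligned by the authors with Subread to WS220 and counted per gene with featureCounts, with versions not given in the sources used here. The authors deposited the L1 values as a signal per gene, the count normalized with DESeq2. The adult table holds the same kind of value from the authors, treated here as a score because a few of its rows, left out here, hold values below 0. The authors' fold changes, p-values and adjusted p-values of their own comparisons were not used.

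The 2 tables were joined on the gene identifier, with 4 rows left out by name and 106 pairs dropped whose names disagreed. Each library was divided by its sum over the 16859 shared genes and scaled to CPM. In every library 100% of values were whole multiples of 1 read within 0.1 read, which gave the depths. No count model was run on these reads between the tables, since the tables were normalized separately. Differences were computed in Python 3.11.15 with numpy 2.4.6 and pandas 2.3.3 as mean log2(CPM + 0.1), and the counting was tested on simulated data.

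Named genes were the 10 highest and 10 lowest differences among genes of at least 50 CPM, up to 4 members of each list with the highest level, and a fixed set of markers, and the text says where a further gene was picked with its values in view. The rule, the 50 lists and the markers were chosen with earlier results of these data known. The labels name 3 replicates per group, and the study describes them as independent. Alternatives were other scalings, a pseudocount of 1, no filter or one of 10 CPM, and leaving out each replicate. Standard errors cover the spread between replicates only.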

Additional observations from a re-analysis of the deposited data

Results flagged for a closer look

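Stage differences that changed direction between controls and the starvation lines were sought among all 13104 genes. In 113 genes (0.862%) the adult and L1 values did not overlap in either comparison and lay in opposite directions. In 7 of them the difference was at least 2-fold in both, and in none was it 4-fold in both. The difference between the comparisons was not tested for any gene, and the starvation lines differ from controls in history at both stages.

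The collagen sqt-3 differed by -1.19 in controls (adults minus L1, log2) and by 1.52 in the starvation lines, with a mean of 11.8 CPM in control adults and values of 53.4 to 95.4 CPM in fertile F4 L1starved adults. Hedgehog-related genes grl-7 and wrt-1 had differences of -2.72 and -2.14 in controls, and of 1.25 and 1.18 in the starvation lines. The endocytic receptor lrp-1 of the epidermis, a gene of the molting list, had a difference of -0.49 in controls and 0.61 in the starvation lines. The gene glf-1, for a mutase that makes a sugar of the surface coat, had a difference of -1.49 in controls and 2.07 in the starvation lines. The gene dct-8 differed by -2.50 in controls and by 1.95 in the starvation lines, with values under 5 CPM throughout. For F30H5.3 the differences were -1.91 and 1.23, and for F45E1.4 they were -1.05 and 1.101. In all 8 genes the fertile F4 L1starved adults lay above the control adults in every library.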

How the results depend on the processing

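Rescaling by median-of-ratios or by sums without genes of at least 1% of a library moved the counts as given above. CPM over all rows of each table gave 2297 and 3474 genes, and no filter gave 2436 and 3769. A pseudocount of 1 left 1820 genes higher in adults and 2150 in L1 animals, and a filter at 10 CPM left 1677 and 1788, where the first shrinks the differences of low genes and the second leaves them out. In the starvation lines these settings gave 1463 and 1862, and 1325 and 1617. Leaving out one replicate gave 2245 to 2332 and 3404 to 3656 genes in controls, and 1914 to 1995 and 2865 to 3309 in the starvation lines.

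The list median of glycolysis went from -0.17 to 0.22 with median-of-ratios scaling and to 0.10 with the sum without the largest genes; the cause was not tested. Of 49 lists with members above 1 CPM, 33 had a median below 0, and 30 to 34 under the alternatives. Scaling changed the sign of 10 of 228 named genes and of 3 list medians, those of glycolysis, fatty acid synthesis and mitochondrial ribosomal proteins. No paired analysis was possible because the comparison between stages comes from no test and a replicate number links no adult to an L1 library. Depth limits values under 0.141 to 0.165 CPM in adults and 0.0675 to 0.0772 CPM in L1 animals, where 3 reads or fewer lie.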
